A study of Homo sapiens with 6 samples.

Results

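In MIAPaCa2 cells given fibroblast-conditioned medium, 592 strong MYC intervals overlapped no peak of either library from cells kept in serum-free DMEM. MIAPaCa2 is an established human pancreatic ductal adenocarcinoma line. Per the labels, the cells were maintained in DMEM with serum, starved of serum for 48 hours, and then given either fresh DMEM or conditioned medium (CM) of cancer-associated fibroblasts for 3 hours before MYC was immunoprecipitated. Each condition has 2 immunoprecipitated libraries. All 4 come from 1 cell line, and nothing in the labels says that the libraries of a condition were separate cultures. The 2 input libraries were not analysed here. The 592 intervals were chosen by 2 measured values from the 9901 intervals that the authors list as common to both CM libraries: a common score of at least 100, and no overlap of 1 bp or more with a DMEM peak. They are 11.0% of the 5397 common intervals with that score. Their number depends on single libraries: it was 2188 without DMEM library 2 and 1173 without CM library 2. The latter counts peaks of CM library 1 by their own scores, not common intervals. Over all 9901 common intervals, 35.8% overlapped no DMEM peak. The score is the authors' own number for each peak, at least 13 in every list, and an interval's common score is the mean over its peaks. Scores rank peaks within a list and measure no amount of binding. The files hold no read counts, so depth is unknown, and the lists differ in length: 15304 and 12797 peaks for CM libraries 1 and 2, against 4657 and 7652 for DMEM libraries 1 and 2. A missing DMEM peak therefore means that no peak passed the authors' threshold there, not that MYC was absent, and depth, immunoprecipitation yield and medium cannot be told apart. In a bulk assay, fewer cells with MYC at a site and less MYC per cell cannot be told apart either.

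MYC is a basic helix-loop-helix leucine zipper protein that binds DNA as a dimer with MAX. The dimer prefers the E-box CACGTG and also binds close variants such as CACGCG, and in proliferating cells it occupies promoters that are already open, most of them rich in CpG dinucleotides. When MYC is abundant, weaker promoters and distal enhancers are also occupied. Serum starvation lowers MYC in many cells, and growth factors restore it through transcription and through phosphorylation that stabilises the protein. In pancreatic cancer, secreted stromal factors also feed into MYC.

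Promoter sequences show what these sites look like. The 250 bases before the RefSeq gene start (GRCh38.p14, 5′ to 3′ on the gene's own strand) are printed for the 6 highest-scoring of the 592 intervals whose whole promoter window lay inside the interval. Those of 2 intervals with a common score of 291.5 that did have a DMEM peak follow for comparison, ZNF84 and MRPL30. Capitals mark CACGTG and CACGCG, the latter also as CGCGTG, its reverse complement. The ALKBH4 promoter is at chr7:102464864-102465113 on the minus strand, CDK5RAP3 at chr17:47970863-47971112 on the plus strand, CHCHD3 at chr7:133082091-133082340 on the minus strand and ZNF775 at chr7:150379080-150379329 on the plus strand. MINK1 is at chr17:4833090-4833339, PRPS2 at chrX:12791162-12791411, ZNF84 at chr12:133037330-133037579 and MRPL30 at chr2:99180934-99181183, all on the plus strand.
ALKBH4: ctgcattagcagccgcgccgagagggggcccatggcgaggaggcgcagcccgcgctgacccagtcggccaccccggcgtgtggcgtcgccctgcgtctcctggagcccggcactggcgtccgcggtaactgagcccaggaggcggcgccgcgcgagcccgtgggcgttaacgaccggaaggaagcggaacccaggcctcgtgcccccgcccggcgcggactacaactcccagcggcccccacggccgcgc
CDK5RAP3: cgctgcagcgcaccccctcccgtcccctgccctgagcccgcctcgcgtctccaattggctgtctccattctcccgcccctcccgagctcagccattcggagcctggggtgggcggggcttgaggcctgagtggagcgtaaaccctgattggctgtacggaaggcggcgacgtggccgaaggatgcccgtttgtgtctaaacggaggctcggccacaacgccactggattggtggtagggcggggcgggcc
CHCHD3: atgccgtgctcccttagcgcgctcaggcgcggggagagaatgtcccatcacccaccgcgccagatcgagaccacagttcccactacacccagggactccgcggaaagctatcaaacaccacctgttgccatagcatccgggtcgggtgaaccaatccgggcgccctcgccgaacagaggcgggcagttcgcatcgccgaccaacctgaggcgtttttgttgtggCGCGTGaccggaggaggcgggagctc
ZNF775: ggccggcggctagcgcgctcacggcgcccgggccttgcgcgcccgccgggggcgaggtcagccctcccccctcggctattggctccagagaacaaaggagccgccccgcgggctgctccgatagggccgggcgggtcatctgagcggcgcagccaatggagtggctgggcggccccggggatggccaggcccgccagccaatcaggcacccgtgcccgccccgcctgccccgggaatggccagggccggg
MINK1: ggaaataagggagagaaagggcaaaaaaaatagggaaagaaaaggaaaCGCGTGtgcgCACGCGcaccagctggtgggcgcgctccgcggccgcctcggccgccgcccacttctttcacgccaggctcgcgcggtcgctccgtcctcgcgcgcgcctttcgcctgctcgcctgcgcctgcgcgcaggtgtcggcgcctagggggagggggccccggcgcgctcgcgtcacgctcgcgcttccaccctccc
PRPS2: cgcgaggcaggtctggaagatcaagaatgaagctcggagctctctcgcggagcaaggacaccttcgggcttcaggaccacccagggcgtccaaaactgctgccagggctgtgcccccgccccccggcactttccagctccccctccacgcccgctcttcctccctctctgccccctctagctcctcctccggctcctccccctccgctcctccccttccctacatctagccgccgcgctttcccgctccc
ZNF84: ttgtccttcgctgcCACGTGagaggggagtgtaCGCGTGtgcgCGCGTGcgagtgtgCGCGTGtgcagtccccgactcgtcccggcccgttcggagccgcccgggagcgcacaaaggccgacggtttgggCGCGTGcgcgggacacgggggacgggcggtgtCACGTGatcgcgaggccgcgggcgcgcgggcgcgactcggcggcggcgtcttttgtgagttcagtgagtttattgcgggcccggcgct
MRPL30: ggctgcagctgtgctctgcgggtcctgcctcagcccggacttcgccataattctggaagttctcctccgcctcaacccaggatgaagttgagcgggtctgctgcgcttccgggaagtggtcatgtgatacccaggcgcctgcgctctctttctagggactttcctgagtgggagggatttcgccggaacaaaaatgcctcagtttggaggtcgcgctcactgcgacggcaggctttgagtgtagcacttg

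None of the 6 promoters without a DMEM peak holds CACGTG in these bases. CHCHD3 holds 1 CACGCG and MINK1 holds 2, while ALKBH4, CDK5RAP3, ZNF775 and PRPS2 hold neither motif. The GC content of the 6 runs from 64% to 77.6%, with 17 to 38 CpG dinucleotides each. Of the promoters with a DMEM peak, ZNF84 holds 2 CACGTG and 4 CACGCG, and MRPL30 holds neither, with 58.8% GC and 15 CpG. A match is a description of the letters, not evidence of a bound site.

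The same features were counted over the 300 bases around the start (250 before, 50 after) of all genes in the RefSeq promoter table. The table holds 22199 such promoters. Of the 592 intervals, 381 had a protein-coding start of this table within 1000 bp. Only the promoter of the nearest such start was counted, 1 per interval, and comparison promoters were taken in the same way. The comparison intervals were the 3592 common CM intervals of score 100 to 291.5, the same range, that did overlap a DMEM peak. Of these, 1925 overlapped peaks of both DMEM libraries, 1569 of library 2 alone and 98 of library 1 alone. Because they score higher, comparison values are given weighted to the scores of the 592 intervals in 4 bands, of 100 to 124.7, up to 149.7, up to 199.7 and up to 299.5. Median GC content was 69% at intervals without a DMEM peak, 67.7% at the comparison intervals and 62.3% over all promoters. The median ratio of observed to expected CpG was 0.906, 0.875 and 0.737. CACGTG was in 39 of the 381 promoters (10.2%), in 12.5% of comparison promoters and in 8.34% of all. CACGCG, counted on both strands, was in 105 (27.6%), 23.7% and 14.3%. Either of the 2 was in 35.4%, 33.5% and 21.0%. No test was made, since promoters of 1 set of libraries are not replicates, and these shares describe these lists.

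For the GC box, the ETS core, TATAAA and the AP-1 site, the share differed more between MYC intervals and all promoters than between intervals with and without a DMEM peak. The GC box GGGCGG was in 79.3% of promoters without a DMEM peak, 77.3% of the comparison and 56.3% of all. The ETS core CCGGAA was in 34.4%, 31.2% and 21.2%. TATAAA was in 2.89%, 4.07% and 9.47%. The AP-1 site TGANTCA was in 3.15%, 3.69% and 6.15%, the CRE TGACGTCA in 2.36%, 3.43% and 2.26%, and CCAAT in 30.4%, 33.5% and 34.7%. Among further E-box variants, CATGCG was in 14.2%, 11.9% and 7.92%, CACGAG in 9.45%, 8.90% and 7.37%, and CATGTG in 5.77%, 5.52% and 8.93%. GGAATG, the TEAD core, was in 11.5%, 9.51% and 12.2%, and TTCNNNGAA, the STAT site, in 5.51%, 4.81% and 6.79%. All were searched on both strands, and GGGCGG and CACGCG can share CpG-rich bases.

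The scores that chose the 592 intervals lay near the bottom of the strong range. Their common scores ran from 100 to 291.5, with a median of 120 and quartiles of 108.5 and 135.5. The best peak inside each interval scored 49 to 357 in CM library 1 (median 136) and 33 to 342 in CM library 2 (median 117). In 305 intervals the best peak reached 100 in both CM libraries, while it stayed under 100 in library 1 at 79 and in library 2 at 208. Library 1 gave the higher score at 378 intervals (63.9%), against 64.8% of the weighted comparison intervals. The median ratio of library 1 to library 2 was 1.18 in both sets. The score cut falls in a dense region of the list: 160 of the 592 scored under 110, and 110 more intervals without a DMEM peak scored from 95 to under 100. Just inside, at score 100, lay intervals at NBPF8 and between coding genes nearest to TRIM16. Just outside lay 3 of score 99.5, at SIKE1, at ZNF841 and nearest to CDH5. NBPF8 belongs to a family of near-identical copies, so its reads cannot be placed with certainty.

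**Figure D1:**
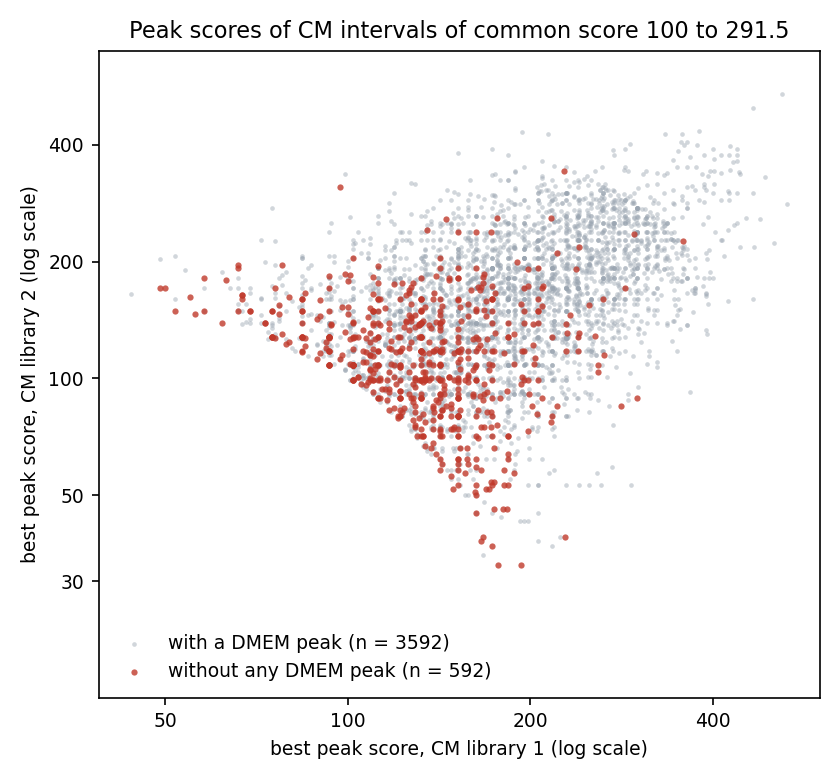
Best peak score in CM library 1 (x axis) against CM library 2 (y axis), both log scales, for the 592 intervals without a DMEM peak (red) and the 3592 with one (grey), 1 point per interval. The red points fill the lower part of the score range that the grey points span, and their diagonal lower edge is the common score of 100 that chose them.

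The share without a DMEM peak fell with the CM score, a description of the rule's own 2 values. In the 4 bands, from the lowest up, it was 29.9% (349 of 1166), 18.2% (160 of 877), 6.22% (70 of 1125) and 1.22% (13 of 1065). Of the 1164 intervals of score 300 or more, 0 lacked a DMEM peak and 98.1% had one in both libraries. Where DMEM peaks existed, their scores moved the same way: the median in DMEM library 1 was 47 in the lowest band and 123.5 in the highest, and in library 2 it was 62 and 248.

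**Figure D2:**
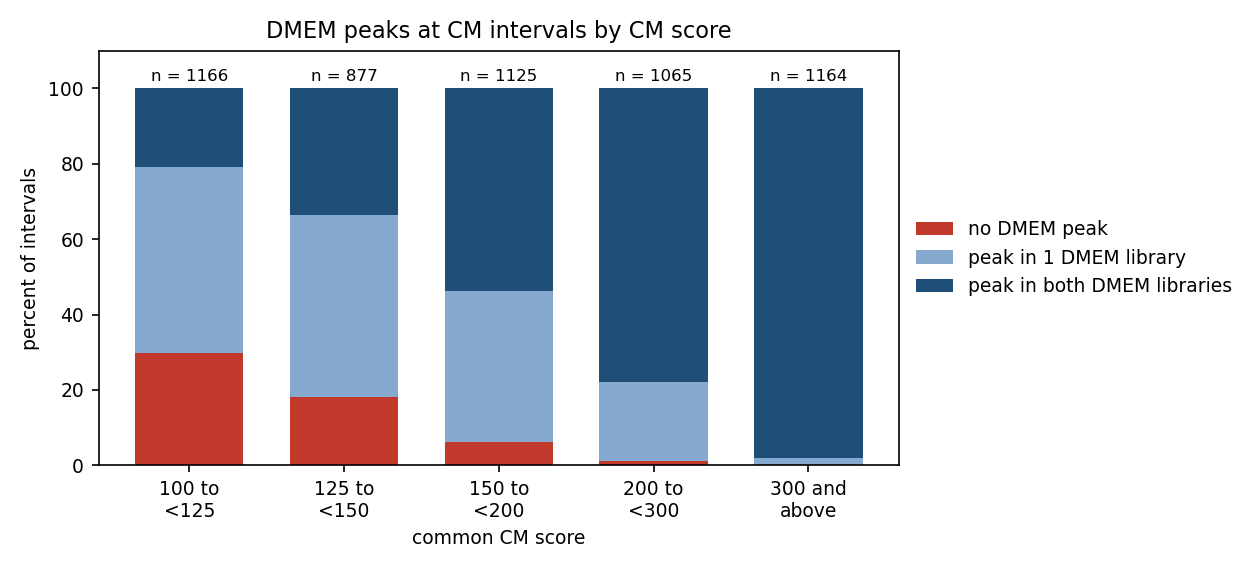
Percent of common CM intervals (y axis) with no DMEM peak, a peak in 1 DMEM library or peaks in both, by band of common CM score (x axis), with the number of intervals above each bar. The share with no peak is 29.9% in the lowest band and 0 in the highest.

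The highest-scoring intervals are described by gene, and no theme is drawn from them. Of the 20 highest-scoring intervals, 11 lay at a coding start and 1 at an annotated start or end of a noncoding gene only. Another 5 lay inside a coding gene and 3 between coding genes. In each, both CM libraries had a peak and both DMEM libraries had none. The highest, 1102 bp at chr7:102464261-102465362, covers the divergent starts of ALKBH4, a dioxygenase of the AlkB family, and LRWD1, which binds the origin recognition complex. It scored 357 in CM library 1 and 226 in CM library 2. CDK5RAP3, a cofactor of the UFM1 ligase at the endoplasmic reticulum, scored 216 and 260. DCAKD, a kinase-domain protein of coenzyme A metabolism, scored 287 and 171.

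Mitochondrial genes in this group were CHCHD3, a subunit of the complex that shapes cristae, with 238 and 191, and SFXN1, the mitochondrial serine carrier, with 250 and 155. NDUFAF6, an assembly factor of respiratory complex I, shares its interval with CCNE2 (cyclin E2, which drives entry into S phase), at 264 and 160. The CCNE2 start lay outside this interval, 938.5 bp from the midpoint, and that of NDUFAF6 44.5 bp from it. Another common CM interval lay 101 bp away. PRPS2, which makes the phosphoribosyl pyrophosphate used in nucleotide synthesis, scored 190 and 200. These 4 intervals had their higher score in different CM libraries, library 1 for CHCHD3, SFXN1 and NDUFAF6 with CCNE2, and library 2 for PRPS2.

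The remaining promoters of the 20 were ZNF775, a zinc finger gene, with 172 and 238, CYP20A1, a cytochrome P450, with a common score of 191.5, and 2 genes of kinase signalling. NF1 encodes neurofibromin, the GTPase-activating protein that switches RAS off, and scored 209 and 171. MINK1 encodes a kinase of the STE20 family and scored 97 and 312, the widest gap between the CM libraries among the 13 intervals of score 200 or more. Over the 20 intervals, 13 scored higher in CM library 1.

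Of the 20, 9 lay at no coding start. The second highest of all, 1386 bp at chrX:107676080-107677465, lies between coding genes, 39042 bp from the nearest start, that of TSC22D3, a glucocorticoid-induced leucine zipper gene. It scored 227 and 342. The third, at chr17:64965332-64966790, lies within 1000 bp of an annotated start or end of AMZ2P1, a pseudogene, and scored 297 and 236. An interval inside AP3D1, a subunit of the AP-3 vesicle adaptor, scored 241 and 218, and is the only 1 of the 20 with a DMEM peak within 1000 bp, 237 bp away in library 1 and 649 bp in library 2. An interval inside NECAB2 scored 221 and 210. At chr9:136567611-136568589, 21562 bp from the start of the NOTCH1 receptor gene, the scores were 163 and 239. The other 4 lay inside RBFOX3, inside LIMA1, inside RFPL1 and between coding genes nearest to EXOC2, with common scores of 192.5 to 195.5. RFPL1 scored 300 in CM library 1 and 89 in library 2, so its rank rests on library 1.

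The 592 intervals had a lower median width than intervals of similar score with a DMEM peak. It was 1032 bp (quartiles 777.5 and 1364, range 331 to 2701), against 1381 bp in the weighted comparison and 1532 bp unweighted. The widest peak of CM library 1 was 960 bp at the median against 1264 bp, and that of CM library 2 was 670.5 bp against 908 bp. In the 4 score bands the medians without a DMEM peak were 970, 1084, 1216 and 1234 bp. With a peak in 1 DMEM library they were 1225, 1306, 1400 and 1559 bp, and with peaks in both 1558, 1559, 1699 and 1864 bp. Width thus rose with score in each set, and within every band it was lowest without a DMEM peak and highest with both. More than 1 peak of a CM library was joined in 48 of the 592 intervals (8.11%), against 26.5% of the weighted comparison.

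**Figure D3:**
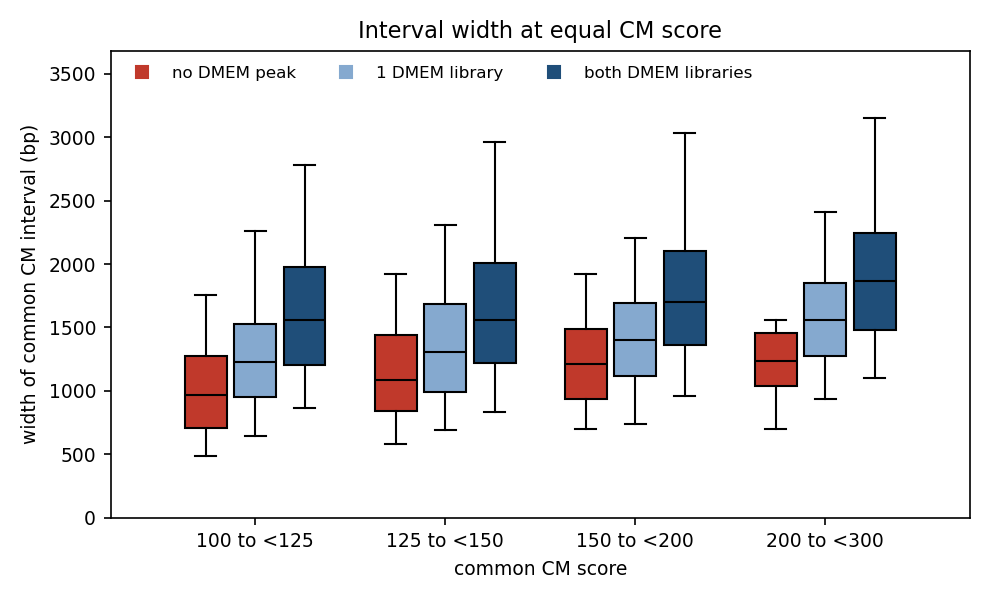
Width of the common CM interval in bp (y axis) by band of common CM score (x axis), for intervals with no DMEM peak, a peak in 1 DMEM library and peaks in both (box, quartiles and median; whiskers, percentiles 5 to 95). Medians without a DMEM peak run from 970 to 1234 bp and lie under those of both other sets in every band.

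A wide interval also offers more bases for a DMEM peak to overlap, so width is not independent of the rule. With a target of equal size in every interval, a DMEM peak within 250 bp of the midpoint, 739 intervals lacked 1 and their median width was 218 bp under the weighted comparison, instead of 349.5 bp. Among intervals built from 1 peak of each CM library the gap was 228 bp, with a median of 1000 bp without a DMEM peak. Both of these settings were chosen after the data were seen.

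Some of the widest of the 592 are named here, and no theme is drawn from them. The first, 2701 bp at chr13:50123881-50126581, covers the start of DLEU2, the noncoding host gene of the miR-15a and miR-16 cluster, at a common score of 119.5. KDM6B, a histone H3 lysine demethylase, had 2679 bp, and NR4A3, an orphan nuclear receptor of the early response, 2571 bp. The interval shared by CDKN1B, the cyclin-dependent kinase inhibitor p27, and GPR19 had 2375 bp. The common scores of these 4 were all under 150, so they were not among the strongest.

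Most of the 592 intervals lay at promoters. A protein-coding start was within 1000 bp of 438 (74.0%), against 80.0% of the weighted comparison intervals. A further 43 (7.26% against 5.15%) lay at the start of another kind of gene only. For genes of any kind absent from the promoter table, either annotated end counted as a start. Inside a coding gene lay 48 (8.11% against 6.58%) and between coding genes 63 (10.6% against 8.30%). More than 10000 bp from any coding start lay 123 (20.8% against 13.8%). By score band the share at a coding start was 74.5%, 75.6%, 70% and 61.5% without a DMEM peak, and 81.0% to 86.4% with peaks in both DMEM libraries. The top band without a DMEM peak holds only 13 intervals. A miRNA gene was within 1000 bp of 7 intervals (1.18% against 1.13%) and a tRNA gene of 2 (0.338% against 0.812%).

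**Figure D4:**
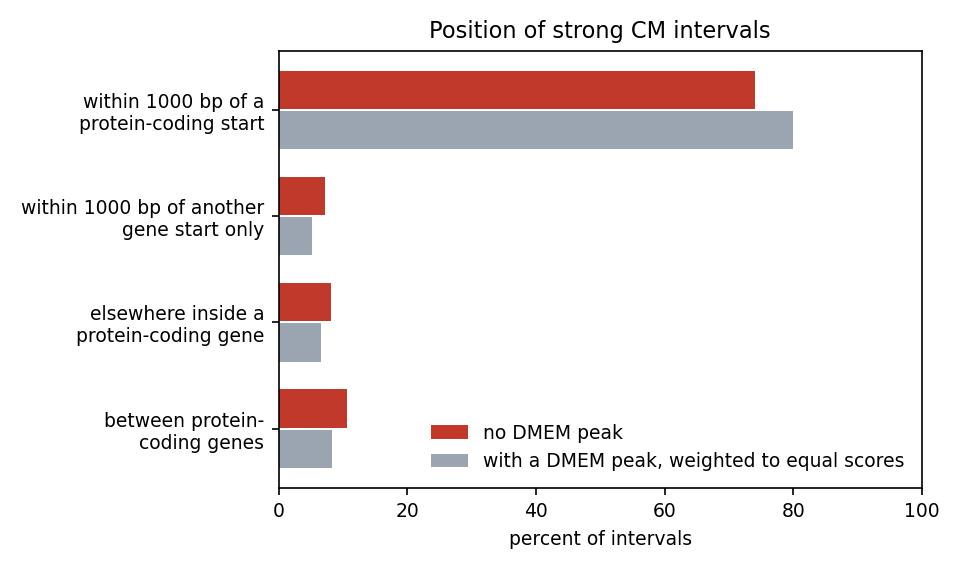
Percent of intervals (x axis) at a coding start, at another start only, inside a coding gene and between coding genes, for the 592 intervals without a DMEM peak and the comparison intervals weighted by score. The share at a coding start is 74.0% and 80.0%.

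Of the 438 intervals at a coding start, 334 (76.3%) contained the start itself, against 89.1% in the comparison. The median distance from the midpoint to the start was 222 bp, against 211 bp. The midpoint was downstream of the start in 63.5% of intervals against 59.9%. A pair of coding genes was at 60 of the 438 intervals (13.7%), against 17.6% of the comparison with 2 or more. The gene with the nearest start was 38696.5 bp long at the median, 33167 bp in the comparison and 24469 bp over all coding genes.

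Some of the 592 intervals sat beside a DMEM peak rather than far from any. A DMEM peak lay within 1000 bp of 81 of the 592, in library 1 at 39 and in library 2 at 76, and the smallest gap was 35 bp. Of these 81, 76 (93.8%) had another common CM interval within 1000 bp, so they lie beside another MYC site. They were narrow (median 826 bp), and of the 64 at a coding start only 24 (37.5%) contained the start, with a median midpoint distance of 483 bp. The other 511 had a median width of 1069 bp. Of these, 70 (13.7%) had another CM interval within 1000 bp, 374 lay at a coding start and 310 (82.9%) of the 374 contained it, with a median distance of 196.5 bp. For all 592, the nearest DMEM peak of either library was 48063.5 bp away at the median.

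**Figure D5:**
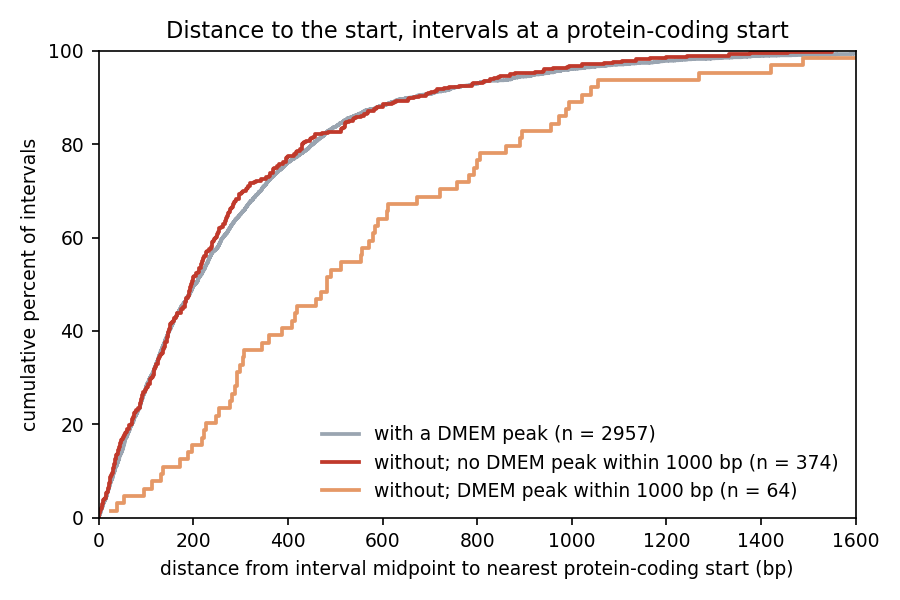
Cumulative percent of intervals at a coding start (y axis) by distance from the interval midpoint to that start in bp (x axis), for intervals without a DMEM peak that lie beside one, those that do not, and the comparison. The curve of the flanking intervals, with a median of 483 bp, lies to the right of the other sets, whose medians are 196.5 and 203 bp (comparison unweighted).

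A start within 1000 bp of the 592 intervals was found for 492 protein-coding genes, 2.48% of the 19866 in the annotation. The comparison intervals reached 17.2% (3420 genes), and any common CM interval 39.7%. Of the 492 genes, 51 were also at a comparison interval and 79 (16.1%) had a DMEM peak within 1000 bp of a start, so these also had a DMEM peak by the same distance. The share of all coding genes with such a DMEM peak is not given here, so the 16.1% is read no further. Without DMEM library 2 the genes would number 1964, and without CM library 2 they would number 913. For genes absent from the promoter table both annotated ends stood in for the start. Among 885 genes in 24 lists of pathways and cell types, 37 (4.18%) were at one of the 592 intervals and 234 at a comparison interval. The lists were drawn up with earlier results of these data known, so their counts are descriptions.

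Early-response genes are those that growth factors induce first. Their list, with the AP-1 genes, had 5 of 45 members (11.1%) at these intervals and 13 (28.9%) at comparison intervals. Over all coding genes the shares were 2.48% and 17.2%. FOS, the AP-1 subunit, scored 152 and 62 in the CM libraries, in a 486 bp interval upstream that did not contain its start, with the nearest DMEM peak 17415 bp away. JUNB, another AP-1 subunit, scored 129 and 75, with a DMEM peak 1023 bp away in library 2. NR4A3 scored 142 and 136, and its nearest DMEM peak was 84611 bp away. KLF10, a repressor induced by TGF-beta, scored 102 and 99 and lay 411 bp from a peak of DMEM library 2. MCL1, an inhibitor of apoptosis and not a transcription factor, is counted in the apoptosis list too, and scored 112 and 160. Like every common CM interval, all 5 have a peak in both CM libraries, at unequal scores for FOS, JUNB and MCL1.

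Beside the signalling lists stand 2.48% of all coding genes at these intervals and 17.2% at comparison intervals. Genes of MAP kinases and ERK feedback had 3 of 43 members (6.98%, with 11 at comparison intervals). They were NF1, MAPK6, an atypical MAP kinase, and ERRFI1, an inhibitor of the EGF receptor. ERRFI1 scored 142 and 109. MAPK6 scored 152 and 89 but lay 473 bp from a DMEM peak. Growth factors and cytokines had 1 of 50 (4), TGFB2, a TGF-beta ligand, with 126 and 104. Their receptors had 2 of 48 (10), IL6ST, the gp130 subunit shared by receptors of the interleukin-6 family, with 131 and 99, and TGFBR1, the type I TGF-beta receptor, with 111 and 106. The nearest DMEM peak was 59303 bp away at TGFB2 and 116371 bp at TGFBR1. These genes come from separate lists, with 2% and 4.17% of their members here, and a link between them was not tested. Integrins, adhesion and matrix had 2 of 55 (7), ITGB1, the beta 1 integrin subunit, with a common score of 132.5, and ADAM9, a membrane protease, with 129.5. Actin, SRF and YAP target genes had 0 of 52, against 14 at comparison intervals. With 2.48% of all coding genes at these intervals, a 0 in a list of 52 is read no further.

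Cell cycle regulators had 4 of 46 members here (8.70%) and 16 at comparison intervals (34.8%), beside 2.48% and 17.2% of all coding genes. The 4 act at the passage from G1 to S phase. CCNE2, whose start lay outside its interval, is given above. E2F1, the transcription factor of S-phase genes, scored 188 and 130 in an interval that did not contain its start. RBL1, the pocket protein p107 that restrains E2F factors, scored 110 and 165. CDKN1B scored 216 and 77. SKP1, a subunit of the ubiquitin ligase that degrades p27, scored 183 and 93 and was the 1 gene of 42 in the ubiquitin and proteasome list (16). Genes that promote and genes that restrain this step were both among the 4 cell cycle regulators, and no theme is drawn from them. DNA replication and repair had 2 of 50 (18), XRCC5, the Ku80 subunit, with 117 and 92, and CDT1, a licensing factor, with 144 and 91 and a DMEM peak 228 bp away. The CDT1 start lay outside this interval, 799.5 bp from the midpoint, and CDT1 was also at a comparison interval.

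Apoptosis regulators had 4 of 31 members here (12.9%) and 7 at comparison intervals (22.6%), beside 2.48% and 17.2% of all coding genes. CASP8, the initiator caspase of death receptors, scored 188 and 109 with its start 56.5 bp from the interval midpoint and the nearest DMEM peak 23763 bp away. DIABLO, which releases caspases from their inhibitors, scored 73 and 139. CASP2 scored 141 and 100, 35 bp from a peak of DMEM library 2, and MCL1 is described above. Chromatin regulators had 5 of 51 here (9.80%) and 19 at comparison intervals (37.3%). DNMT1, the maintenance DNA methyltransferase, scored 128 and 176, and SETD2, which trimethylates histone H3 lysine 36, scored 184 and 71, with the nearest DMEM peaks 56723 and 117622 bp away. KMT2B, KMT2C and KDM6B had a DMEM peak 319, 584 and 554 bp away and were also at a comparison interval.

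Metabolic and stress lists together had 7 of 153 members (4.58%). Of all coding genes, 2.48% lay at these intervals and 17.2% at comparison intervals. Cholesterol and fatty acid synthesis had 2 of 28 members, among them FDPS, which makes farnesyl pyrophosphate, with 112 and 99, while 15 (53.6%) lay at comparison intervals. Stress and the unfolded protein response had 2 of 45 (13), SYVN1, a ubiquitin ligase of endoplasmic reticulum degradation, with 138 and 160, and ASNS, asparagine synthetase, with 127 and 156. Lysosome and autophagy had 3 of 50 (16), ATP6V1H, a subunit of the proton pump, CTSZ, a cathepsin, and WIPI2, which acts in autophagosome formation, all with common scores under 110. Glycolysis had 0 of 30 (11).

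Genes of protein synthesis are among the best known MYC targets. Their 3 lists had 2 of 139 members at these intervals (1.44%), not far from the 2.48% of all coding genes. Ribosomal proteins had 0 of 61 members here and 10 (16.4%) at comparison intervals, and 57 of the 61 were at some common CM interval. Beside these stand 17.2% of all coding genes at comparison intervals and 39.7% at any common CM interval. Translation factors had 0 of 33, with 11 at comparison intervals and 29 at some common CM interval. Ribosome assembly factors had 2 of 45, with 9 at comparison intervals and 44 at some common CM interval. Both of the 2 lay beside a DMEM peak: EBNA1BP2 at 240 bp and WDR74 at 109 bp. The MYC network itself had 0 of 25 (8 at comparison intervals) and circadian clock genes 0 of 23 (8). Ductal and epithelial markers had 0 of 15, acinar and islet markers 0 of 8, fibroblast markers 0 of 10 and blood markers 0 of 7, and each of these 4 lists also had 0 at comparison intervals, so the labelled cell type cannot be checked from these intervals. In all, 10 of the 24 lists had no gene here. With 2.48% of all coding genes at these intervals, a 0 in lists of this size is read no further.

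Of the 4184 intervals of score 100 to 291.5 on all chromosomes, 14.1% had no DMEM peak, and the share varied between chromosomes. On chromosome 17 it was 20.2% (51 of 253), and this chromosome held 8.61% of the 592 intervals against 4.94% of the weighted comparison. In the same score range it was 26.2% (16 of 61) on chromosome 13 and 21.4% (18 of 84) on chromosome 15, and lowest on chromosome 21 at 7.84% (4 of 51).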

How the data were processed

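Peak lists of 4 MYC ChIP-seq libraries and the list of common CM peaks were used. Each holds a score per peak, as deposited by the authors. MACS2 2.1.1.20160309, Picard 2.9.0, SAMtools 1.3.1, Bowtie2 2.3.4 and Trim Galore 0.4.3 are named, with build GRCh38, per the submitters' processing notes. How they were set, and the control of each list, is not given in the sources used here. Each of the 9901 common CM intervals was checked to be the union of its named peaks with their mean score. The other common lists were not used here.

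The intervals described and the gene lists were chosen with earlier results of these data known. Overlaps, widths, positions and motifs were computed in Python 3.11.15 (numpy 2.4.6, pandas 2.3.3) and checked on simulated intervals. Starts came from the RefSeq promoter table (GRCh38.p14) for 15843 coding genes and from both annotated ends for 4023 others. Another 171 coding genes on scaffolds or alternate loci were left out. Other kinds of gene absent from the promoter table were also placed by both ends. Without a genome sequence, interval sequences, exons and introns were not analysed here. No test was made: the rule used scores and overlaps, and intervals are not replicates. Named are the genes of the 20 highest and 5 widest intervals, of the 3 lowest, of the 5 highest without a coding start, and up to 6 per list. Some items that this rule names are not reported here. Alternatives changed the score minimum, the DMEM criterion, the distance to a start, the weighting and each library.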

Additional observations from a re-analysis of the deposited data

How the results depend on the processing

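Read depth is unknown, so a missing DMEM peak has no detection limit that can be stated. The number of intervals without a DMEM peak was 2774 at a minimum score of 50, 13 at 200 and 321 where the best peak of each CM library had to reach 100. Leaving out 1 library at a time gave 679 to 2188, and the highest was without DMEM library 2. Without CM library 2 it was 1173. Every setting without a CM library took the other CM library's own peaks and scores in place of the common intervals. The genes were 2058, 10 and 275 at the same 3 settings, and 559 to 1964 without 1 library, with 1964 without DMEM library 2 and 913 without CM library 2. The share at a coding start was 68.2% at a minimum of 50, 61.5% at 200, 69.9% with starts within 500 bp, 81.2% with starts of all annotated genes, 69.1% with both ends of every coding gene (chosen after seeing the data) and 70.4% to 78.6% without 1 library. It stayed under the comparison in all 15 alternatives, by -24.6 percentage points at a minimum of 200 and by -7.98 to -3.57 without 1 library. The median width was 810.5 bp at a minimum of 50, 1234 bp at 200 and 648 to 1258 bp without 1 library. The difference in median width was below zero in all 12 alternatives: -309.5 bp at a minimum of 50, -539 at 200, -290 with no DMEM peak within 1000 bp, -336 with both best peaks at 100, -500.5 unweighted, and -337.5 to -315 without 1 library. It was -218 by the midpoint criterion, -252.5 with bands of the best peaks and -228 with 1 peak of each CM library, all 3 chosen after seeing the data. The share of promoters with CACGTG was 8.67% to 11.6% without 1 library, with differences of -3.81 to -1.82 percentage points. At a minimum of 200 the share was 0, a difference of -14.7 percentage points. Only 13 intervals remained there, 61.5% of them at a coding start, so this value rests on few promoters. No paired analysis was possible because the results are overlaps and counts of peak lists with no test across libraries, so no replicate block could enter.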

Other observations

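The genes named here were picked from the 492 (2.48% of all coding genes) after their values were seen. They come from no fixed list, how many genes of like function lay at no such interval was not counted, and no theme is drawn from them. Lack of an overlapping DMEM peak is part of the rule that chose the intervals, so their distances to DMEM peaks are descriptions. Of genes that act with mTORC1, a kinase complex that couples nutrients and growth factors to protein synthesis, 5 picked in this way were MLST8, a subunit of the complex (142 in CM library 1 and 139 in library 2), AKT1S1, its inhibitor PRAS40 (171 and 105), RPS6KB1, its substrate S6 kinase 1 (118 and 119), LAMTOR1, the lysosomal anchor of the Ragulator complex (102 and 139), and FLCN, folliculin (168 and 75). The nearest DMEM peak was 1400 bp away at AKT1S1 and 8322 bp or more away at the other 4.

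Another 8 picked genes act in protein entry into the secretory pathway or its first transport step. They were SRP9 of the signal recognition particle (131 and 137), SEC62 of the translocon (114 and 94), SPCS1 and SEC11A of the signal peptidase (173 and 108, 142 and 71), OSTC and KRTCAP2 of the oligosaccharyltransferase (163 and 108, 77 and 147), and the COPII coat genes SEC23B (132 and 118) and SEC24B (93 and 128). All 8 were 18446 bp or more from a DMEM peak.

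Transcription factor genes outside the lists included MYB (233 and 146), FOXC1 (206 and 160), ETS2 (143 and 154), SMAD3 (132 and 160) and TFDP1, the dimer partner of E2F1 (142 and 118). MYB and FOXC1 lay 617 and 117 bp from a peak of DMEM library 2, the other 3 at least 188834 bp from any.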
